A study of Homo sapiens with 18 samples.

Results

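The PCIF1 KO1 line of MEL624 cells was compared with the control line in the RNA taken before any immunoprecipitation (input RNA-seq). MEL624 is an established human melanoma cell line, grown in DMEM with serum and given no treatment. The control line is labelled wild type with a random sgRNA, a guide RNA meant for no gene, and KO1 is 1 of 2 independent clonal lines that carry a PCIF1 knockout. The other clone, KO2, is used below only to show where KO1 differs from it. Each line has 3 biological replicates, lettered A, B and C. With 1 control line and 1 clone in the comparison, p-values here reflect how far libraries within a line scatter, and effects of PCIF1 loss cannot be told apart from other differences between the 2 lines. The m6A-immunoprecipitated libraries were not analysed here. The members of the comparison are the 14508 of 15258 genes in the expression table whose level averaged at least 1 TPM over the 6 libraries. TPM, the usual unit of transcript abundance, is a level corrected for library size and gene length. RALGPS1, at 1.0012 TPM, was the lowest gene inside this limit, and UBAP1L, at 0.9998 TPM, the highest outside it.

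PCIF1 is the nuclear enzyme that adds an N6-methyl group to an mRNA's starting nucleotide when this is an adenosine already methylated on its ribose. The product, m6Am, sits directly next to the cap, and PCIF1 is known to reach the start of a transcript by binding the phosphorylated tail of RNA polymerase II. Internal m6A is made by a different enzyme, METTL3 with METTL14. An mRNA that starts with another base has no adenosine at that place for PCIF1 to methylate.

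The 9 libraries held between 7848089 and 11393206 reads, recovered as whole numbers from the table. At that depth 3 reads, the limit that a count of 0 allows, correspond to between 0.2633 and 0.3823 RPM, and limits of this kind cover counting error only. Libraries of the same line correlated at 0.9864 to 0.9899 over the tested genes, and KO1 and control libraries at 0.9465 to 0.9519. Of 12 melanoma and melanocyte markers only 4 are listed in the table: MITF, PRAME, CSPG4 and MCAM. Their summed level was 357.73 to 377.1 TPM in control and 432.25 to 449.07 TPM in KO1, but the members did not move together. PRAME and CSPG4 were higher in KO1 (log2 differences 0.85 and 0.44) and MITF lower (-0.50), each at a limma adjusted p under 0.05. MCAM did not differ at that limit (-0.01). PRAME lies within a stretch of neighbouring genes, as defined further on. SOX10, PMEL, MLANA, TYR, TYRP1, DCT, S100A1 and S100B are not listed. No T-cell, B-cell or erythroid marker is listed.

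PCIF1 itself (chromosome 20, plus strand, 45934683 to 45948023, hg38) stood at 55.2, 62.0 and 55.6 TPM in control libraries A, B and C. In KO1 it stood at 24.7, 22 and 25.3 TPM. Every KO1 library lay below every control library, as held for 3026 of the 14508 tested genes. The means were 57.6 ± 3.84 and 24 ± 1.77 TPM (SD, n = 3 each), a log2 difference of -1.26 (SE 0.07, limma adjusted p = 1.74e-06). An exact two-sided permutation test of the 6 levels gave p = 0.1, the smallest that 3 against 3 can give. PCIF1 mRNA was therefore reduced and not absent, with 614 reads left in KO1 against 1522 in control. In KO2 its mean was 60.3 TPM, and KO1 lay 1.33 below KO2 on the log2 scale (limma adjusted p = 2.86e-06). Where and how the gene was edited is not stated in the labels, and a level over the whole gene does not show whether a transcript is intact.

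Because PCIF1 acts only on transcripts that start with an adenosine, the sequence around the start is shown here for a selection of the genes that differed most. Each line gives 15 bases before the RefSeq start, the start base in capitals, and 20 bases after it, 5′ to 3′ on the gene's strand (GRCh38.p14). The first is PCIF1, then 3 genes that had no read in control and were active in KO1, then 3 that were nearly lost in KO1.
PCIF1, chr20:45934668-45934703, plus strand: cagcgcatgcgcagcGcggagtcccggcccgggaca
MGMT, chr10:129467226-129467261, plus strand: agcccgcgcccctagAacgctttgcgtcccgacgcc
PNMA8A, chr19:46471543-46471578, minus strand: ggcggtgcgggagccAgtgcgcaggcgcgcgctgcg
MEOX2, chr7:15686663-15686698, minus strand: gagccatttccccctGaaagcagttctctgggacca
CA9, chr9:35673913-35673948, plus strand: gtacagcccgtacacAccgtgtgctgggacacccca
GSPT2, chrX:51743427-51743462, plus strand: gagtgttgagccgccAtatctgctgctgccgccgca
EMC10, chr19:50476492-50476527, plus strand: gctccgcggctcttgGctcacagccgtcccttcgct
Genes annotated to start with A stand among the large gains (MGMT, PNMA8A) and among the large losses (CA9, GSPT2), and so do genes that start with G (MEOX2, EMC10). The balance of A and G in these lines comes from which genes were selected. Among other large gains, CYTL1 and LINC02953 start with A, PXDN, CAVIN2, SH3GL2 and ASS1 with G, and RELN with C. Among other large losses, POTEC and PTN start with A. An annotated start is 1 position per gene and was not measured in these cells. Across all 27305 RefSeq promoters, 44.27% have A at the start and 29.44% have C followed by A across it.

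Of the 14508 genes, 4980 (34.3%) differed between KO1 and control at a limma adjusted p under 0.05, with 2919 higher in KO1 (20.1%) and 2061 lower (14.2%). Most differences were small. The median size among these 4980 genes was 0.39 on the log2 scale, and 63.3% of them were under 0.5. More than 2-fold differences numbered 306 higher and 302 lower, and more than 16-fold differences 28 higher and 36 lower. Higher genes made up 58.6% of the calls, but this share depended on the scaling. It was 49.53% with each library centred on its median gene, 51.78% with quantile normalization, 46.82% with limma-voom on the recovered reads, and 49.89% after a trend with gene length and GC content was subtracted. The median difference over all tested genes was 0.03. In 4214 genes every KO1 library lay above every control library, and in 3026 every KO1 library lay below. Such separation, given for single genes in the text, was thus common.

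Starting base was compared among 12124 protein-coding genes by the annotated start of the canonical transcript. Of 5558 genes starting with A, 21.5% were higher and 15.4% lower in KO1, with a median difference of 0.03. Of 5102 starting with G the shares were 21.6% and 14.5%, with the same median to 2 decimals. Genes starting with C (1383) had 16.9% higher and 17.4% lower. In the highest of 4 equal bins of expression level the share higher was 26.8% for genes starting with A and 23% for the others. In the other 3 bins, from the lowest up, it was 17% against 16.2%, 20.2% against 19.7%, and 23% against 22.8%. All 6566 genes that start with another base together had 20.5% higher and 15.1% lower, close to the shares for A. With the start taken from RefSeq instead, a choice made after seeing the data, 22.3% of A genes and 20.8% of other genes were higher, and 14.4% and 15.4% were lower. Genes with C before a starting A, the commonest initiator pair, had 22.4% higher and 14.7% lower.

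**Figure D1:**
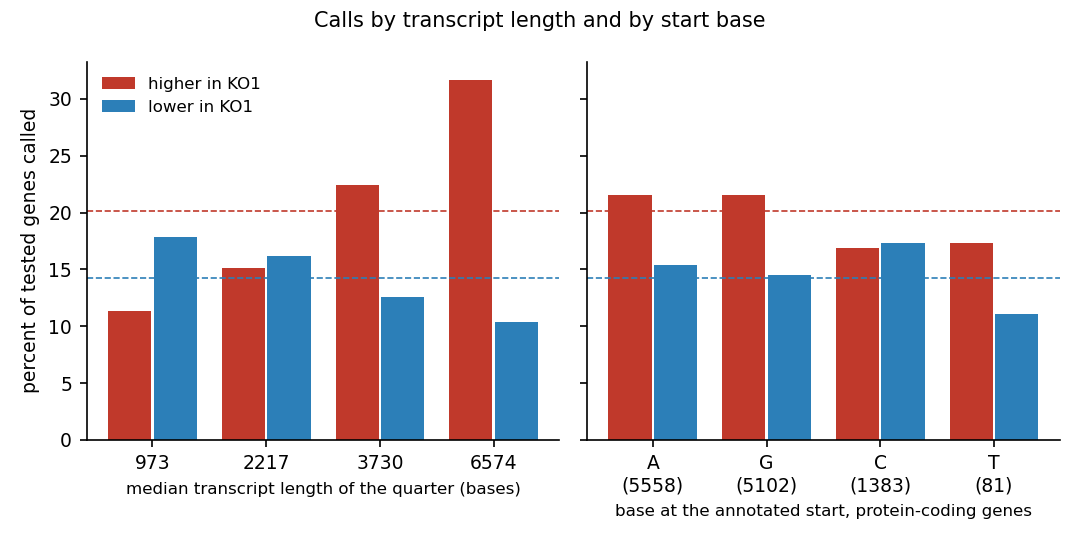
Percent of tested genes called higher and lower in KO1 against control, in 4 equal bins of transcript length (median lengths of 973, 2217, 3730 and 6574 bases) and by annotated start base of protein-coding genes (A, 5558; G, 5102; C, 1383; T, 81). Dashed lines are the shares over all tested genes, 20.1% higher and 14.2% lower. The share higher climbed from 11.3% to 31.7% with length, and the bars for A and G have nearly the same height.

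Transcript length moved with the calls more than the start base did. The share higher in KO1 was 11.3%, 15.1%, 22.4% and 31.7% in 4 equal bins from the shortest to the longest genes. The share lower went the other way, through 17.8%, 16.2%, 12.5% and 10.4%. By GC content the share lower was 9.1%, 12.1%, 15.1% and 20.6% in 4 equal bins from the poorest to the richest. Among the other scalings whose ranges are given for groups below, 1 subtracts a trend with length and GC content. Under it protocadherins had 45 higher and 1 lower of 48, and splicing factors had 26 higher and 5 lower of 68. Long noncoding RNAs had 17.3% higher and 8.9% lower (1386 genes), and processed pseudogenes 6.9% and 8.2% (306 genes).

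The largest gains were genes with almost no reads in control. RELN, which encodes the secreted matrix protein reelin, had 1, 0 and 2 reads in control libraries A, B and C. It had 529, 662 and 574 reads in KO1, or 16.7, 18 and 17.6 TPM. The depth-scaled ratio was 587 with a counting interval of 201 to 2851 (log2 difference 9.41, limma adjusted p = 3.59e-06). RELN was therefore silent or nearly so in every control library and well expressed in every KO1 library. It averaged 13.5 TPM in KO2.

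MGMT, the enzyme that removes alkyl groups from guanine in DNA, had no read in any control library and 142, 166 and 141 reads in KO1. Its KO1 levels of 16, 16.1 and 15.4 TPM were at least 149-fold higher, counting 3 reads over the control group as the limit. PNMA8A, of the paraneoplastic antigen family, also had no control read, and stood at 17.4, 17.7 and 18.2 TPM in KO1 (at least 175-fold higher). The homeobox factor MEOX2 had 0 reads in control and 60, 73 and 55 in KO1 (at least 62.6-fold higher), and the galactosidase-like gene GLB1L2 had 0 against 118, 132 and 98 (at least 116-fold higher). For these 4 genes the control libraries held no read at all, while the KO1 replicates lay close to one another. Their KO2 means of 19.2, 21.1, 11.2 and 3.87 TPM, in the order given, show that reads were present in that clone too. Like RELN, these 4 genes were chosen among those whose KO1 and control libraries did not overlap. They passed the limit of 1 TPM only through KO1, so their separation follows from the choice. In all, 10 of the 14508 genes had no read in control. A further view is that 179 averaged below 1 TPM in control only, and 105 of these were called higher.

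ASS1, which makes argininosuccinate in arginine synthesis, rose from 0.0322, 0.168 and 0.661 TPM in control to 12.5, 14.6 and 12.6 TPM in KO1 (log2 difference 6.43, SE 0.81, limma adjusted p = 0.000277). SH3GL2, an endophilin of synaptic vesicle recycling, stood at 0.610, 0.502 and 0.894 TPM in control. In KO1 it was at 23.4, 24.6 and 22.5 TPM (5.18, adjusted p = 7.71e-08), near its KO2 mean of 26.0. PXDN, a peroxidase that crosslinks collagen IV, went from 0.227, 0.379 and 0.690 to 8.70, 7.84 and 7.43 TPM (4.35, adjusted p = 1.28e-05). These 3 genes were chosen among those whose KO1 and control libraries did not overlap, so their separation follows from that choice. For PXDN the KO2 mean was 2.69 TPM, and KO1 lay 1.58 higher than KO2 on the log2 scale (limma adjusted p = 0.00695). OR51B3P, an olfactory receptor pseudogene, was the 12th gene of this set with at least 5 TPM, at 0.107, 0.563 and 1.37 TPM in control and 5.36, 5.39 and 8.16 in KO1. Reads of a pseudogene may be shared with related copies.

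**Figure D2:**
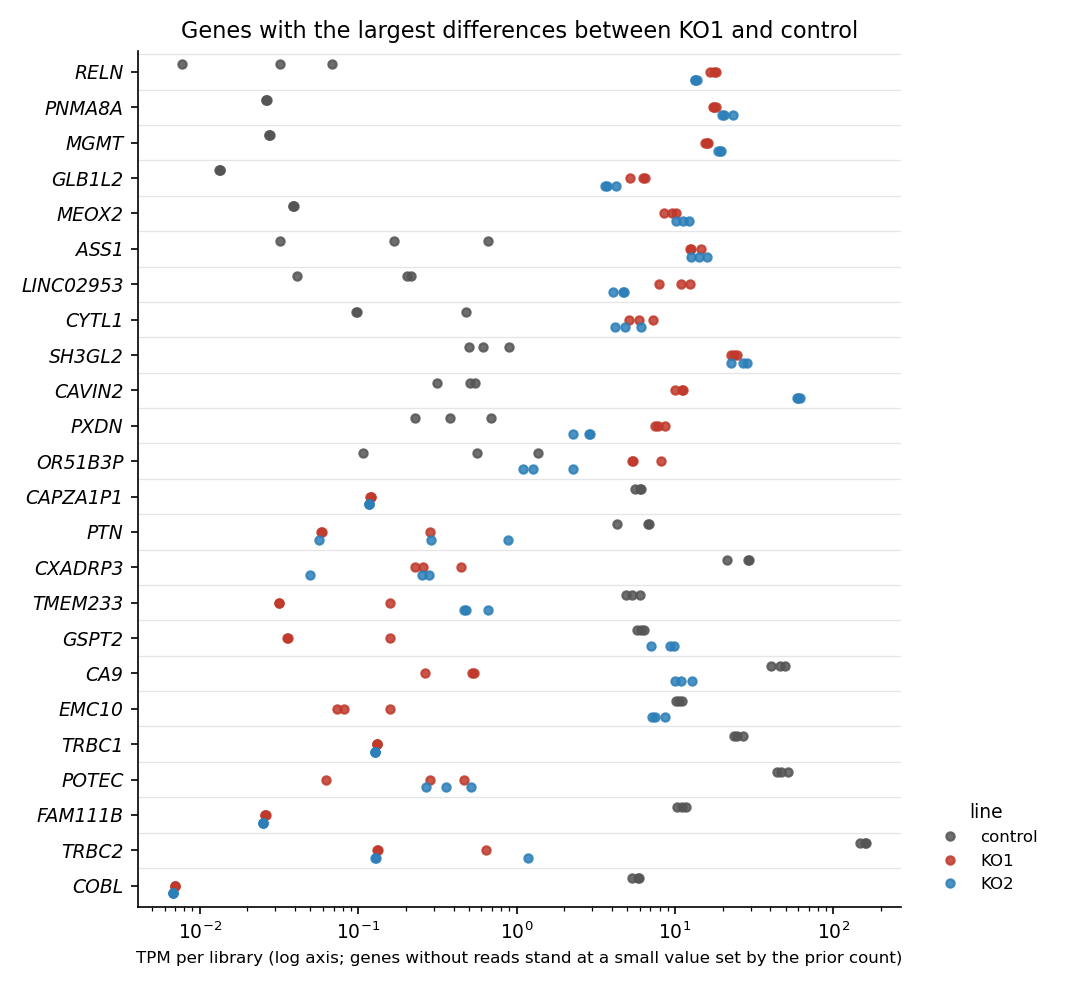
Level of 24 genes in each library of control, KO1 and KO2, in TPM on a log axis: the 12 genes called higher and the 12 called lower with the largest log2 difference between KO1 and control, where the groups did not overlap and the higher line averaged at least 5 TPM. Each point is 1 library, and a gene with no read sits at a small value set by the prior count added before the log. Points of KO1 and control are separated in every row because the genes were chosen that way.

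Among the losses, COBL, an actin nucleator, had 5.84, 5.93 and 5.38 TPM in control and no read in any KO1 library (677 reads against 0, at least 226-fold lower). FAM111B, a protease linked to DNA replication, stood at 11.1, 11.7 and 10.3 TPM in control and at no read in KO1 (350 against 0, at least 117-fold lower). Neither had a read in KO2. The T-cell receptor constant gene TRBC2 stood at 158, 147 and 161 TPM in control, and its near-identical neighbour TRBC1 at 23.6, 24.8 and 26.9 TPM. In KO1 TRBC2 had 1 read in all and TRBC1 had none (974 and 156 reads in control). Reads can be assigned to either copy, so their separate values are uncertain, but together the pair was present in every control library and all but missing from KO1.

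POTEC, of a primate-specific ankyrin family with several close copies, fell from 52.0, 46.5 and 44 TPM to 0.463, 0.0624 and 0.286 TPM (log2 difference -7.87, limma adjusted p = 1.17e-05). CXADRP3, a pseudogene of the coxsackievirus and adenovirus receptor, went from 29.0, 29.5 and 21.4 TPM to 0.256, 0.227 and 0.447 TPM (-6.48). The growth factor pleiotrophin, PTN, had 84 reads in control and 1 in KO1, a ratio of 84.1 with a counting interval of 14.7 to 3363. LINC00540 and SPATA21 had 69 and 175 reads in control and none in KO1. COBL, FAM111B, TRBC2, TRBC1, POTEC, CXADRP3 and PTN were chosen among genes whose KO1 and control libraries did not overlap, so their separation follows from that choice. No read was found in KO1 for 13 of the tested genes. Below 1 TPM on average in KO1 only were 169 genes, which passed the limit through control, and 115 of these were called lower.

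Some losses and gains set KO1 apart from KO2. Tested directly between the clones, 4135 genes (28.5%) differed, 2462 of them higher in KO1 (17.0%) and 1673 lower (11.5%). EMC10, a subunit of the ER membrane complex that inserts membrane proteins, stood at 10.5, 11 and 10.2 TPM in control and at 0.158, 0.0734 and 0.0812 TPM in KO1. Its KO2 mean was 7.77 TPM, and KO1 lay 6.30 below KO2 on the log2 scale (limma adjusted p = 5.81e-07). All 10 subunits of that complex were tested, and 3 others were called higher in KO1: EMC1, EMC3 and MMGT1. EMC10 was the 1 subunit called lower.

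GSPT2, a retrogene copy of the translation release factor GSPT1, stood at 6.40, 6.13 and 5.78 TPM in control, and 1 read was left in KO1 against 141 in control. KO2 averaged 8.70 TPM (KO1 minus KO2 -7.20, limma adjusted p = 1.01e-05). GSPT1 itself was called higher in KO1 (log2 difference 0.17, limma adjusted p = 0.00606), where GSPT2 kept that 1 read. How reads shared by the pair were assigned was not tested, so the exact level of GSPT2 is uncertain. ELMO1, a partner of DOCK exchange factors that activate Rac, had 69, 62 and 54 reads in control, 0, 1 and 0 in KO1, and 49, 41 and 78 in KO2 (-7.03, adjusted p = 2.25e-05). CA9, the cell-surface carbonic anhydrase induced by low oxygen, fell from 40.2, 49.7 and 45.8 TPM to 0.539, 0.266 and 0.523 TPM, with 11.2 TPM in KO2 (-4.73, adjusted p = 1.95e-06). These 4 genes were thus nearly lost in KO1 and not in KO2. EMC10, GSPT2 and CA9 were also chosen among genes whose KO1 and control libraries did not overlap.

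Of the gains, EPHA3, an ephrin receptor, had 50, 52 and 43 reads in KO1 and none in control or KO2 (at least 48.3-fold higher than control; KO1 minus KO2 7.55, limma adjusted p = 3.22e-05). CAVIN2, a coat protein of caveolae, rose from 0.316, 0.546 and 0.505 TPM to 9.93, 11.1 and 11.3 TPM. KO2 held more of it, at 60.2 TPM, and KO1 lay 2.48 below KO2 (adjusted p = 1.59e-05). TMEM233, a small membrane protein, stood at 6.0, 5.33 and 4.91 TPM in control, at 1 read in KO1 and at 0.534 TPM in KO2. For CAVIN2 and TMEM233 too, the separation of KO1 from control follows from how they were chosen. The coagulation initiator tissue factor, F3, was at 30.1, 25.1 and 24.3 TPM in control and at 110.2, 103 and 101 TPM in KO1 (1.99, adjusted p = 1.12e-07). In KO2 it averaged 17.2 TPM, so the KO1 libraries stood above both other lines (KO1 minus KO2 2.61, adjusted p = 1.11e-07).

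**Figure D3:**
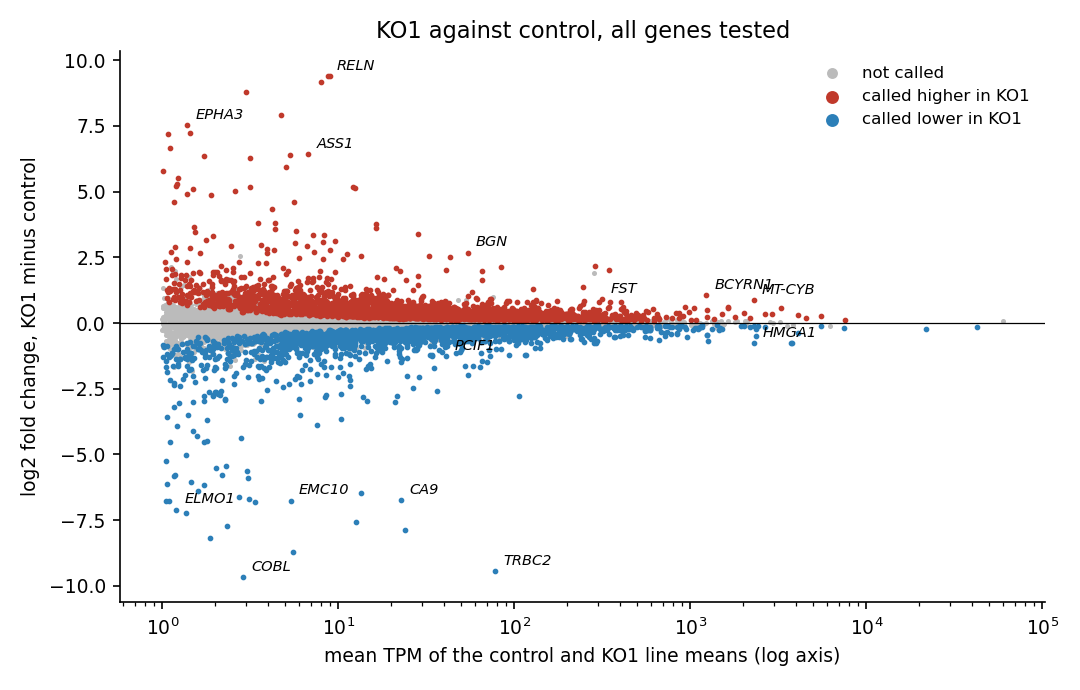
Log2 difference between KO1 and control (vertical) against mean level over the 6 libraries in TPM (horizontal, log axis) for the 14508 tested genes, with the 2919 called higher and 2061 called lower in colour and 9528 not called in grey. Differences beyond 16-fold, 64 in all, belong to genes at the left and in the middle of the plot, and the most abundant genes at the right differ little.

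The genes called higher went from 18.8% to 23.8% of all TPM and those called lower from 29.2% to 23.9%. The directions follow from the grouping, and TPM is corrected for length, so these are not shares of RNA mass. HMGA1, an architectural chromatin protein abundant in tumour cells, was among the largest falls. It stood at 2876, 2892 and 2951 TPM in control and at 1713, 1727 and 1705 TPM in KO1, a log2 difference of -0.76 (SE 0.03, limma adjusted p = 1.22e-07), with KO2 between the 2 at 2514 TPM. S100A6, a calcium-binding protein, fell from 2755, 2812 and 2709 to 1951, 2033 and 1913 TPM (-0.49, adjusted p = 4.48e-06). The spliceosomal core protein gene SNRPB fell from 1434, 1549 and 1664 to 964, 960.5 and 946 TPM (-0.69). No KO1 library of these 3 genes reached the lowest control library. TMSB10, a thymosin that binds monomeric actin, fell by 0.20 from 7924, 8099 and 7961 to 6996, 7043 and 6896 TPM (adjusted p = 0.00186).

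Several of the largest rises in TPM were mitochondrial mRNAs. MT-CYB, a subunit of respiratory complex III, rose from 1654, 1576 and 1638 to 2692, 2926 and 3238 TPM (log2 difference 0.86, limma adjusted p = 5.99e-06). MT-CO2, of complex IV, went from 5076, 4966 and 4839 to 5755, 6007 and 6333 TPM (0.28, adjusted p = 0.00079). Of the 13 mRNAs encoded by mitochondrial DNA, 10 were higher and none lower, with a median of 0.34; under the 4 other scalings 0 or 1 was lower. The mitochondrial ribosomal RNA MT-RNR2 went the other way, from 25539, 22923 and 22410.0 TPM in control to 19158, 20574 and 20055 TPM in KO1 (-0.24, adjusted p = 0.0168), a call lost without control A or without KO1 A. Beta-actin, ACTB, rose from 2641, 2472 and 2545 to 3409, 3069 and 3260 TPM (0.35, adjusted p = 0.000913).

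A few abundant transcripts are not normally polyadenylated, and their level after bead purification of mRNA depends on how much of them is carried over, which was not measured. BCYRN1, a small brain cytoplasmic RNA, rose from 728, 811 and 846 to 1604, 1675 and 1744 TPM (log2 difference 1.08, SE 0.06, limma adjusted p = 9.47e-07). RMRP, the RNA of RNase MRP, fell from 4569, 4906 and 4718 to 2692, 2987 and 2681 TPM (-0.76, adjusted p = 2.74e-06). The replication-dependent histone genes belong to the same class, and 24 of 49 were lower and 2 higher, with a median of -0.30. Of these 49 genes, 27 lie within the stretches of neighbouring genes described further on, and 17 of those were lower.

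Gene groups are described by how many of their tested members were called, to be read against 20.1% higher and 14.2% lower among all genes and a median of 0.03. The enzymes that make, methylate, bind or remove the cap were mostly not called: 4 of 19 were higher and 3 lower, PCIF1 itself included, with a median of 0.08 that lay between -0.02 and 0.05 under other scalings. The call of the demethylase FTO, 1 of the 4, was lost without control B or C or without any 1 KO1 library, and under quantile normalization or with the GC and length trend subtracted; that of CMTR2, 1 of the 3, was lost without control B or KO1 C. RNMT, which methylates the cap guanosine, fell from 139, 140.4 and 134 to 90.8, 92.1 and 91.7 TPM (log2 difference -0.59, limma adjusted p = 4.46e-06). It lies on the short arm of chromosome 18, within a stretch of lower genes described further on. EIF4E2, a cap-binding protein that represses translation, rose from 34.5, 33.3 and 34.5 to 48.9, 49.0 and 50.9 TPM (0.54, adjusted p = 1.84e-05). It lies on chromosome 2 within a stretch of higher genes.

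Ligands and receptors of signalling pathways moved in both directions. Among ligands of receptor tyrosine kinases, 10 of 26 were higher and 6 lower (median 0.16). Amphiregulin, AREG, an EGF receptor ligand, fell from 60.7, 68.0 and 57.3 to 12.2, 12.6 and 7.33 TPM (log2 difference -2.57, SE 0.18, limma adjusted p = 5.69e-06). KITLG, the ligand of the KIT receptor that melanocytes depend on, rose from 5.32, 4.71 and 5.52 to 11.2, 11.3 and 12.8 TPM (1.19, adjusted p = 3.55e-05). The fibroblast growth factor FGF5 rose from 5.35 ± 0.529 to 8.70 ± 1.1 TPM (SD, n = 3 each) and was above its KO2 mean of 4.99 TPM (KO1 minus KO2 0.81, adjusted p = 0.0038).

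Of the 21 receptor tyrosine kinases 5 were higher and 7 lower, and the 7 became 8 to 11 under other scalings and 4 without control B, without control C or without KO1 B. ERBB3, the neuregulin receptor, fell from 3.79, 3.33 and 3.58 to 0.630, 0.849 and 0.952 TPM (log2 difference -2.16, limma adjusted p = 0.0001). The KO1 libraries lay below every control library. Among ephrins, cell-contact ligands of the EPH receptors, EFNA3 fell from 13.3 ± 1.85 to 5.82 ± 0.112 TPM (SD, n = 3), and the receptor gene EPHB2 fell from 10.5 ± 0.592 to 5.31 ± 0.0548 TPM.

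Guidance cues of the semaphorin, netrin and slit families had 4 of 16 ligands higher and 6 lower, with a median of -0.16. SLIT2, a ligand of ROBO receptors, rose from 1.28, 0.911 and 1.04 to 7.09, 5.86 and 7.5 TPM (log2 difference 2.67, limma adjusted p = 5.94e-06) and was above KO2, where it averaged 2.21 TPM (adjusted p = 0.00021). SEMA3C rose from 28.9 ± 0.270 to 51.9 ± 0.757 TPM and SEMA3F fell from 96.2 ± 2.59 to 46.8 ± 1.60 TPM (SD, n = 3). NRP2, a neuropilin co-receptor for this class of ligands, fell from 9.80, 10.3 and 9.92 to 4.12, 3.87 and 3.49 TPM (-1.39, adjusted p = 3.22e-05). Of 13 receptors of these families 7 were higher and 2 lower, and the 7 became 3 without control B or KO1 C and 4 without KO1 A or KO1 B.

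Wnt ligands and receptors gave 1 higher and 3 lower of 16, and 4 to 7 lower under other scalings. WNT7A fell from 15.3, 14.6 and 14.3 to 2.64, 2.43 and 1.63 TPM (log2 difference -2.75, limma adjusted p = 7e-06). The extracellular inhibitors and target genes of the pathway had 6 of 10 higher and none lower (median 0.32), with 5 or 6 higher under other scalings. SFRP1, a secreted Wnt-binding inhibitor, rose from 77.9, 73.7 and 71.2 to 185, 180.2 and 181 TPM (1.30, SE 0.05, adjusted p = 1.22e-07), and the transcription factor TCF7L2 rose from 9.01 ± 0.130 to 15.4 ± 0.980 TPM (SD, n = 3).

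In the Hippo pathway, a kinase cascade that keeps the YAP and TAZ coactivators out of the nucleus, 10 of 19 kinases and effectors were higher and 3 lower (median 0.21). The 3 became 1 without control C or without KO1 B. VGLL3, a partner of TEAD factors, rose from 1.1 ± 0.217 to 3.47 ± 0.456 TPM. Genes known as YAP and TAZ targets had 5 of 18 higher and 1 lower, and 3 lower under each other scaling. In the PI3K and mTOR pathway, 13 of 34 genes were higher and 4 lower (median 0.13), with 9 to 15 higher and 4 to 9 lower under other scalings. PIK3CD, the p110-delta catalytic subunit, fell from 23.2, 23.7 and 23.8 to 11.4, 11.7 and 11.5 TPM (log2 difference -1.03, limma adjusted p = 4.6e-06). PHLPP1, a phosphatase of AKT, rose from 15.8 ± 0.828 to 27.1 ± 1.31 TPM (SD, n = 3).

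**Figure D4:**
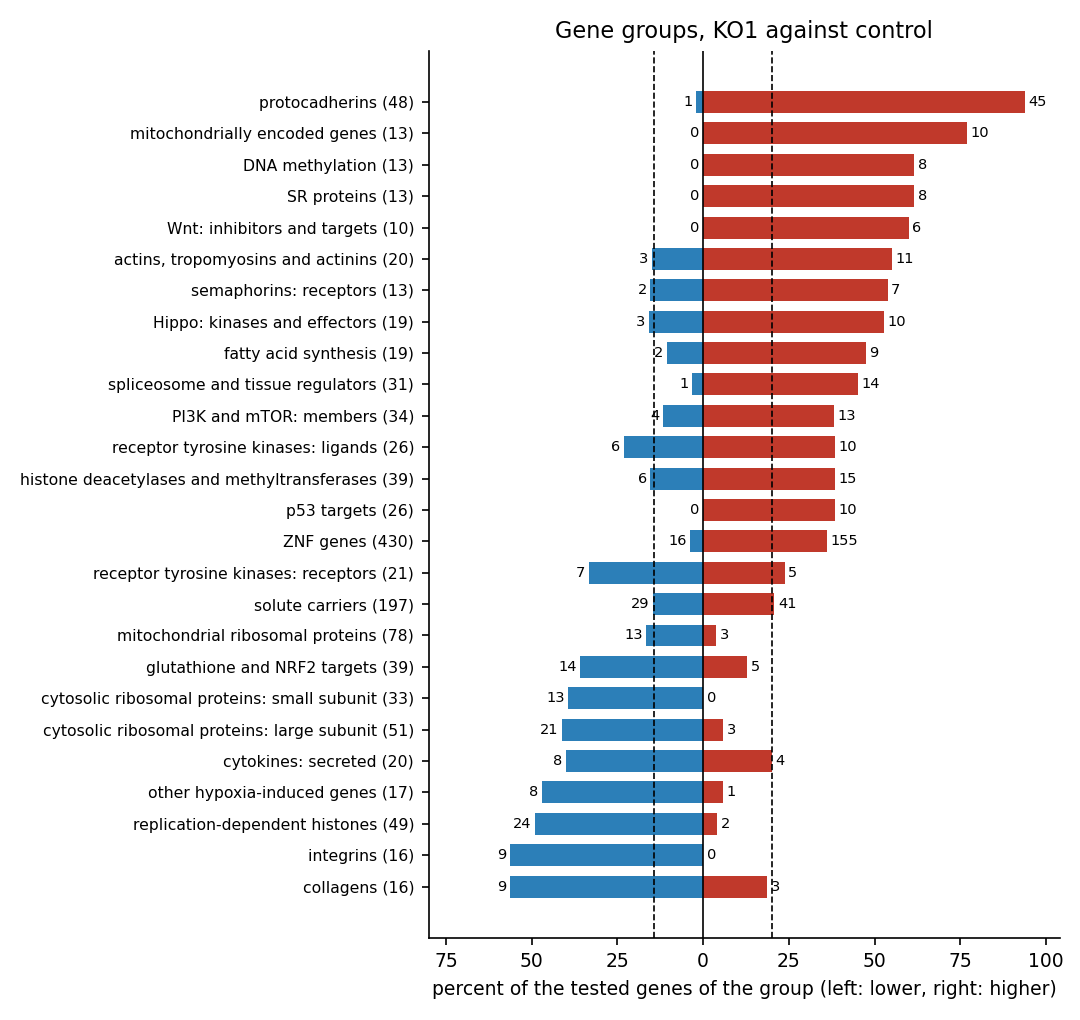
Percent of tested members called lower (left) and higher (right) in KO1 against control in 26 gene groups, with the number called at each bar and the number tested in parentheses. Dashed lines mark the shares over all tested genes, 14.2% lower and 20.1% higher. Protocadherins (45 of 48 higher), integrins (0 of 16 higher, 9 lower) and collagens (9 of 16 lower) stand far from these lines, and solute carriers (41 of 197 higher, 29 lower) lie at them.

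Integrins, the receptors that hold cells to the matrix, leaned lower. None of the 16 tested integrins was higher and 9 were lower (median -0.23), with 9 to 12 lower under other scalings and 6 to 9 with any 1 library left out. ITGB7, the beta chain of lymphocyte homing integrins, fell from 2.22, 2.72 and 3.02 to 0.290, 0.330 and 0.367 TPM (log2 difference -3.01, SE 0.55, limma adjusted p = 0.00247). ITGA7, a laminin receptor chain, fell from 2.90 ± 0.0108 to 1.21 ± 0.423 TPM (SD, n = 3). The KO1 libraries lay below all control libraries for both.

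Of 16 collagen chains, 9 were lower and 3 higher (median -0.40). COL6A3, a chain of beaded-filament collagen VI, stood at 32.5, 33.6 and 33.2 TPM in control and at 13.6, 13 and 12.4 TPM in KO1 (log2 difference -1.35, limma adjusted p = 6.96e-07). Its KO2 mean of 30.5 TPM lay near control, and KO1 was 1.23 below KO2 (adjusted p = 2.95e-06). COL5A2 rose from 39.2 ± 2.19 to 67.0 ± 0.781 TPM and COL8A1 from 11.6 ± 0.412 to 24 ± 1.5 TPM (SD, n = 3). COL5A2 averaged 27.6 TPM in KO2, below both. Proteoglycan core proteins had 7 of 16 higher and 4 lower (median 0.21). GPC1, a glypican, rose from 9.27, 8.26 and 9.20 to 21.3, 17.8 and 20.7 TPM (1.16, adjusted p = 2.55e-05).

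Markers of the dedifferentiated, invasive melanoma state were called in both directions: 7 of 32 were higher and 8 lower (median -0.05). Thrombospondin-1, THBS1, rose from 140.0, 133 and 141 to 359.5, 337 and 365 TPM (log2 difference 1.36, SE 0.05, limma adjusted p = 1.12e-07), above its KO2 mean of 207 TPM. TGFBI, a matrix protein induced by TGF-beta, fell from 45.7, 48.1 and 44.5 to 11.2, 11.3 and 10.8 TPM (-2.06, adjusted p = 2.92e-07). The count of 7 higher fell to between 3 and 6 with any 1 library left out.

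The group with the largest share of called members, among those with 10 or more tested, was the protocadherins, adhesion proteins whose alpha, beta and gamma isoforms come from 3 neighbouring gene arrays on chromosome 5. Of 48 tested, 45 were higher and 1 lower, with a median of 0.59, and 45 higher and 1 lower were counted under each other scaling. By array, 13 of 13 alpha, 7 of 8 beta, 12 of 12 gamma-A, 7 of 7 gamma-B and 3 of 3 gamma-C genes were higher, with medians of 0.87, 1.69, 0.56, 0.57 and 0.57. Alpha genes share constant exons with one another, and so do gamma genes, so the values within these arrays are not separate measurements. The beta genes have no shared constant exon. PCDHB6 stood at 2.01, 2.45 and 1.56 TPM in control and at 18, 16.8 and 16.6 TPM in KO1 (limma adjusted p = 4.95e-07), with 13.1 TPM in KO2.

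Against KO2, 36 of the 48 protocadherins were higher in KO1, and the median of the group in KO2 minus control was 0.11. The 22 gamma genes, which share exons, make up 22 of the 36. In KO2 minus control the alpha and beta medians were 0.43 and 0.90, with 5 of 13 and 5 of 8 called higher, and the gamma-A, gamma-B and gamma-C medians were -0.03, -0.02 and -0.04. The exception was PCDH7, which lies outside the arrays on chromosome 4 and fell from 7.14, 6.30 and 6.58 to 1.28, 1.05 and 1.08 TPM (log2 difference -2.56, limma adjusted p = 5.94e-06). Of the 48 genes, 45 lie within a stretch of chromosome 5 described below. Of the 3 outside it, 1 was higher and 1 lower.

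Among cytoskeletal genes, 3 of 12 tubulins were higher and 2 lower, and 2 of 11 intermediate filament genes were higher and 4 lower. Of 20 actins, tropomyosins, actinins and their partners, 11 were higher and 3 lower (median 0.15), with 7 to 9 higher under other scalings. Tropomyosin TPM1 rose from 28.5, 29.6 and 29.1 to 53.7, 47.1 and 49.6 TPM (log2 difference 0.78, limma adjusted p = 9.07e-06), and non-muscle myosin MYH9 from 279 ± 10.4 to 356 ± 19 TPM (SD, n = 3). The beta-tubulin TUBB6 fell from 781, 803 and 828 to 543, 505 and 499 TPM (-0.64, adjusted p = 3.34e-06), and it lies in the lower stretch of chromosome 18. The hair keratin KRT81 fell from 161, 160.1 and 161 to 71.1, 70.9 and 66.8 TPM and averaged 209 TPM in KO2 (KO1 minus KO2 -1.59, adjusted p = 9.29e-08).

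Genes that act on Rac, a small GTPase that steers actin, were among the falls. Beside ELMO1, the exchange factor DOCK3 fell from 7.11, 7.34 and 7.28 to 1.47, 1.90 and 1.42 TPM (log2 difference -2.19, limma adjusted p = 7.41e-06). ARHGAP22, which inactivates Rac, fell from 10.5, 12.4 and 11.2 to 2.78, 2.60 and 2.07 TPM (-2.20, adjusted p = 3.19e-06). Among vesicle and motor genes, the small GTPase RAB17 rose from 1.82, 2.20 and 2.83 to 14.7, 15.4 and 16.6 TPM (2.79), and KIF1A, a kinesin of synaptic vesicle precursors, from 2.62, 3.04 and 3.83 to 19.2, 17.8 and 20.4 TPM (2.61). Both lie in the higher stretch at the end of chromosome 2.

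Lipid synthesis genes leaned higher. Of 19 genes of fatty acid synthesis 9 were higher and 2 lower (median 0.15), and of 24 of cholesterol synthesis and uptake 7 were higher and 2 lower (median 0.10). Without control A or B, or without KO1 A or C, each 2 became 1. FADS2, a desaturase, rose from 11.6, 11.7 and 13 to 22.4, 23.7 and 25.6 TPM (log2 difference 0.98, limma adjusted p = 1.28e-05).

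Enzymes of glutathione metabolism and targets of the NRF2 factor leaned lower, with 14 of 39 lower and 5 higher (median -0.11). The members did not all follow: NQO1, a quinone reductase, rose from 337, 324 and 321 to 489, 501 and 502 TPM (log2 difference 0.60, limma adjusted p = 2.55e-06). The aldose reductase AKR1B1 fell from 199 ± 6.17 to 134 ± 0.413 TPM (SD, n = 3), and the glutathione transferase GSTM3 from 15.9 ± 1.34 to 7.0 ± 0.944 TPM. Of hypoxia-induced genes outside glycolysis, 8 of 17 were lower and 1 higher (median -0.14). NDRG1, induced by low oxygen and differentiation, fell from 59.6, 58.0 and 59.3 to 33.2, 33.7 and 33.8 TPM (-0.81, adjusted p = 4.46e-06). The 1 higher was STC2, a secreted glycoprotein, from 51.4 ± 1.39 to 95.8 ± 3.44 TPM. Glycolysis genes, the other part of that list, had 6 of 25 higher and 8 lower (median -0.02). Without control B their 8 became 4.

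Membrane transporters as a class stayed near the background, with 41 of 197 solute carriers higher and 29 lower. ABCC2, an exporter of conjugated organic anions, was the member of the ABC family that moved most, from 37.2, 37.4 and 37.5 TPM in control to 4.57, 5.05 and 4.48 TPM in KO1 (log2 difference -2.99, SE 0.10, limma adjusted p = 4.92e-08). The glutamate carrier SLC1A3 fell from 3.80, 4.47 and 4.12 to 1.1, 0.896 and 1.37 TPM and stood at 6.61 TPM in KO2, so that KO1 was the lowest of the 3 lines (KO1 minus KO2 -2.57, adjusted p = 1.3e-05).

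Splicing factors were called higher far more often than lower, at 30 against 2 of 68 (median 0.16). The 2 became 3 to 5 under other scalings and 0 to 2 with 1 library left out. By role these were 8 of 13 SR proteins, which bind exonic enhancers, 8 of 24 hnRNP proteins and 14 of 31 other spliceosome and tissue regulators. The hnRNP count became 5 without control B, and the SR count ranged from 5 to 8 under other scalings. SRSF6 rose from 105, 93.0 and 105 to 152, 149 and 142 TPM (log2 difference 0.55, limma adjusted p = 0.000242). TRA2A rose from 53.6 ± 1.16 to 74.8 ± 2.77 TPM and the SR protein kinase CLK1 from 17.7 ± 0.749 to 25.4 ± 1.15 TPM (SD, n = 3). These differences were small. No KO1 library of the 3 genes lay as low as any control library, as held for 4214 of all 14508 genes. CLK1 lies in a stretch of higher genes on chromosome 2. Of the 65 members outside the chromosomal stretches below, 27 were higher and 2 lower.

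Genes that write, erase or read DNA methylation had 8 of 13 higher and none lower (median 0.22), and 0 or 1 lower under other scalings. TET3, which oxidises methylcytosine, rose from 12.9, 12.2 and 14.1 to 21.1, 18.2 and 20.3 TPM (log2 difference 0.60, limma adjusted p = 0.000493). Histone deacetylases and methyltransferases had 15 of 39 higher and 6 lower. Without control B these were 9 and 2, and the 6 became 3 without control C and 2 without KO1 C. KMT2D, a histone methyltransferase of enhancers, rose from 35.9 ± 1.41 to 54.9 ± 3.41 TPM (SD, n = 3). TET3 and KMT2D both stood above KO2, by 0.56 (adjusted p = 0.001) and 0.46 (adjusted p = 0.000855).

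Zinc finger genes, taken as all symbols that begin with ZNF and for the most part DNA-binding repressors, had 155 of 430 higher and 16 lower (median 0.23), with 128 to 144 higher and 20 to 25 lower under other scalings. The 16 became 10 without control A, control B or any 1 KO1 library. On chromosome 19, where many of them form clusters, 98 of 216 were higher and 3 lower (median 0.35), against 57 and 13 of 214 on other chromosomes (median 0.13). ZNF844 had 2 reads in control and 179 in KO1, a ratio of 89.3 with a counting interval of 24.4 to 743, and averaged 2.79 TPM in KO2. ZNF185, which carries a LIM domain and binds actin despite its symbol, rose from 1.94, 2.01 and 0.897 to 11.7, 10.4 and 12.7 TPM (log2 difference 2.93, limma adjusted p = 3.49e-05). Within the longest of the 4 length bins, 68 of 141 ZNF genes were higher and 8 lower, against 1073 and 365 of 3457 others. Outside the chromosomal stretches, 72 of 270 ZNF genes were higher (26.7%) and 11 lower.

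Cytosolic ribosomal protein genes, among the most abundant in the cell, had 34 of 84 lower and 3 higher with a median of only -0.10. RPS21 fell from 1542, 1608 and 1618 to 1383, 1347 and 1271 TPM (log2 difference -0.25, limma adjusted p = 0.000766), and RPL31 from 199 ± 5.30 to 164 ± 4.63 TPM (SD, n = 3). The lower count ranged from 33 to 52 under other scalings. In the direct test between clones 57 of the 84 were lower in KO1 than in KO2 and none higher, while the median of KO2 minus control was 0.08.

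Genes of cell division showed no common direction, with 21 of 79 higher and 13 lower. CDK6, a kinase of the G1 phase, rose from 56.0, 49.9 and 48.9 to 90.1, 88.3 and 92.2 TPM (log2 difference 0.81, limma adjusted p = 5.57e-06). PCNA, the sliding clamp of replication, fell from 533, 503 and 503 to 355, 393 and 378 TPM (-0.45, adjusted p = 8.48e-05) and lies in the lower stretch of chromosome 20. PRKDC, the catalytic subunit of DNA-dependent protein kinase, rose from 177 ± 3.51 to 321 ± 9.39 TPM (SD, n = 3). Genes known as p53 targets had 10 of 26 higher and none lower (median 0.17).

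Cytokine genes leaned lower, with 8 of 20 secreted factors lower and 4 higher (median -0.27); without KO1 A the 4 became 2. Interleukin-11, IL11, fell from 41.6, 36.7 and 40.2 to 10.1, 10.2 and 9.01 TPM (log2 difference -2.02, limma adjusted p = 9.65e-07). BMP2, on chromosome 20, fell from 5.67, 6.27 and 5.14 to 1.03, 2.13 and 0.994 TPM (-2.13, adjusted p = 0.000565). Antigen presentation genes, a separate list, had 2 of 21 higher and 6 lower (median -0.09). The member that fell most was CD74, which chaperones MHC class II molecules. It fell from 89.8, 90.2 and 84.1 to 28.4, 27.8 and 28.7 TPM (-1.64, SE 0.06, adjusted p = 4.92e-08). Of 6 markers of myeloid cells, which can also carry CD74, 2 are listed, with summed levels of 181 to 193 TPM in control and 130 to 139 TPM in KO1. Nearly all of this is CD68, at 192, 185 and 180 TPM in control, in a culture of 1 cell line. The part of these markers in the result was not tested.

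Among transcription factors of the pigment lineage, MITF, which drives pigment cell genes, fell from 38.3, 37.1 and 36 to 24.3, 25.6 and 29.1 TPM (log2 difference -0.50, limma adjusted p = 0.000538). PAX3, which acts upstream of it, rose from 7.65, 7.93 and 7.11 to 14.8, 13.9 and 14.3 TPM (0.92, adjusted p = 0.000111). MITF averaged 50 TPM in KO2, so that KO1 was the lowest line for this gene (KO1 minus KO2 -0.93, adjusted p = 1.88e-05). Of the 12 tested genes of the pigment lineage list, 3 were higher and 4 lower (median -0.08). Of 39 SOX, FOX and KLF factors, a separate list, 12 were higher and 8 lower. FOXN3 fell from 5.27 ± 0.348 to 1.71 ± 0.159 TPM and KLF15 from 14.7 ± 0.669 to 5.82 ± 0.558 TPM, while KLF13 rose from 3.44 ± 0.364 to 6.53 ± 0.207 TPM and FOXC2 from 10.9 ± 0.897 to 18.5 ± 1.89 TPM (SD, n = 3).

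Genes called in the same direction lay next to one another in several parts of the genome. Windows of 25 neighbouring tested genes, moved along by 5, were joined into a stretch where their median log2 difference passed 0.25 in size with the same sign. Since the stretches were found from these differences, their values are descriptions. At the start of chromosome 18, from USP14 to RIOK3 (158383 to 23486603), 59 of 85 genes were lower and 4 higher (median -0.46). On the short arm of chromosome 20, from C20orf96 to BFSP1 (270863 to 17569220), 58 of 80 were lower and 3 higher (median -0.52). Of the genes above, RNMT, TUBB6, POTEC and CXADRP3 lie in the first, and SNRPB, PCNA and BMP2 in the second. PCIF1 lies outside it, further along chromosome 20. The KO2 medians in these stretches were -0.46 and -0.51.

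Chromosome 2 held a pair of stretches of higher genes, from ZC3H15 to EEF1B2 (186486253 to 206162928; 59 of 85 higher, median 0.47) and from AGFG1 to ATG4B (227472152 to 241673857; 46 of 85 higher, median 0.38). The first holds the chaperonin gene HSPD1, which rose from 768, 743 and 726 to 1110.2, 1143 and 1131 TPM (log2 difference 0.60, limma adjusted p = 4.08e-06). It also holds CAVIN2, CLK1, COL5A2 and NRP2, and the second holds EIF4E2, RAB17, KIF1A, GPC1 and COL6A3; NRP2 and COL6A3 fell against the direction of their neighbours. KO2 medians in the pair were 0.37 and 0.42. On chromosome 5, the stretch that holds the protocadherin arrays runs from ANKHD1-EIF4EBP3 to SPRY4-AS1 (140401908 to 142672001). Of its 75 genes 56 were higher (median 0.57), while KO2 stood at 0.03 there. Protocadherins make up 45 of the 75 and 44 of the 56, and of the 30 other genes 12 were higher and 4 lower. On chromosome 19, 44 of 70 genes from NR2C2AP to C19orf12 (19201409 to 29715789) were higher, with a median of 0.52 against 0.21 in KO2. On chromosome 6, from ACOT13 to H4C9, 21 of 45 genes were lower (median -0.25, KO2 -0.21), many of them histone genes.

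**Figure D5:**
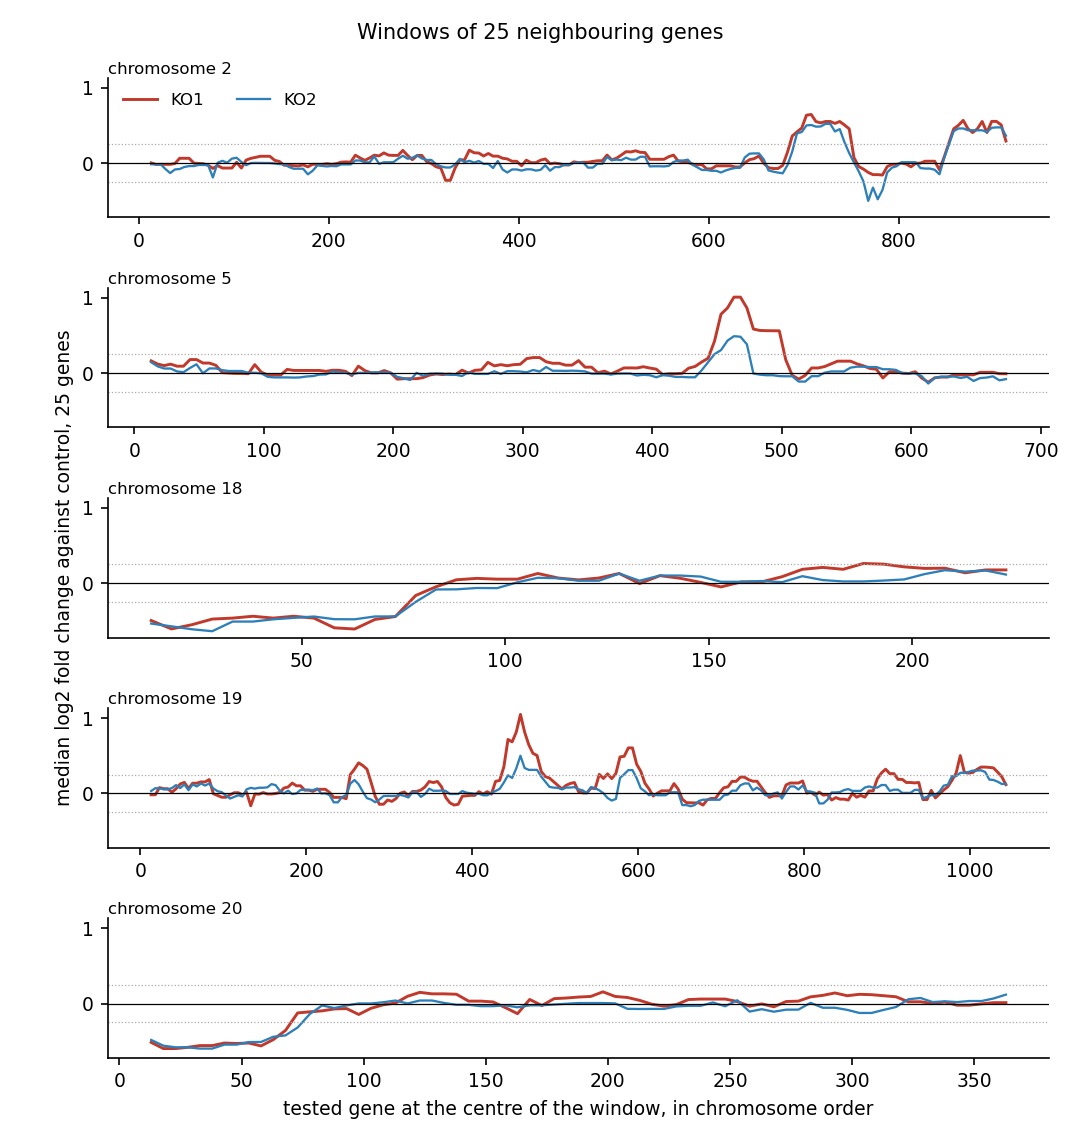
Median log2 difference from control in windows of 25 neighbouring genes along chromosomes 2, 5, 18, 19 and 20, in order along each chromosome, for KO1 (red) and KO2 (blue), with dotted lines at 0.25 above and below 0. Both clones lie at about -0.5 over the start of chromosomes 18 and 20. On chromosome 5 KO1 peaks at the protocadherin arrays, where the stretch median is 0.57 in KO1 and 0.03 in KO2.

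Genes within any such stretch (1046 with coordinates) were 38% higher and 20.7% lower, and the remaining 13346 were 18.7% higher and 13.7% lower. The differences between KO1 and control were thus not limited to these neighbourhoods.

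Of 8 epithelial markers 3 are listed, KRT8, KRT18 and CLDN4. They summed to 1064.5 to 1085.7 TPM in control and 949.75 to 989.83 TPM in KO1, above the sum of the listed melanoma markers, and KRT18 and CLDN4 were called lower. Most of this sum is KRT18, at 993, 966 and 977 TPM in control. Of 7 fibroblast markers 3 are listed, with summed levels of 0.759 to 1.04 TPM in control and 3.68 to 4.96 TPM in KO1. Of 7 endothelial markers 2 are listed, at 8.57 to 9.55 and 16 to 16.9 TPM. Neuronal markers, 5 of 6 listed, summed to 194 to 206 TPM in control and 176 to 188 TPM in KO1. Most of this is TUBB3, at 183, 178 and 192 TPM in control, which was not called. SNAP25 fell from 11.9, 12.4 and 11.3 to 2.41, 4.13 and 2.91 TPM (log2 difference -1.95, limma adjusted p = 0.000434). Their part in the results above was not tested. All libraries come from 1 cultured cell line, so a listed marker need not mark another cell type. In bulk RNA, more cells with a transcript and more of it per cell cannot be told apart.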

How the data were processed

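RNA before immunoprecipitation was sequenced in 3 libraries of each of 3 lines, after extraction with Trizol, 2 rounds of bead purification of mRNA and a directional kit, per the labels' protocols. The authors deposited 1 table of log2 TPM per gene. The submitters' processing notes list the build hg38 and, with no role, edgeR 3.12.1, featureCounts and HISAT2 2.0.4. The gene models, the strand setting and any gene filter are not stated there. Without a known strand setting, antisense and overlapping genes may share reads.

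Reads were recovered from the steps in the values for 100% of genes (within 1e-05 of a whole number), with an added prior count averaging 0.2601 reads. Differences are on the deposited log2 scale. For genes with few reads they depend on the prior count and on averaging logs, and are not lower limits. Symbols, coordinates and starts came from the reference annotation for 15138 of 15258 genes. limma 3.58.1 in R 4.3.3 was fitted to the log2 values of all 9 libraries (trended variance, 6 residual degrees of freedom), which share 1 estimate of spread, and p-values were adjusted by Benjamini-Hochberg over 14508 genes. The fit was tested on simulated data. The replicate letters did not pair libraries. Alternatives changed the filter, scaling, pseudocount, model and libraries.

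Named genes are PCIF1; the 12 highest and 12 lowest by log2 difference among called genes whose groups did not overlap, with at least 5 TPM in the higher line; the 8 largest rises and 8 largest falls in TPM; up to 3 called members per direction of each of 62 lists, or all of a list of up to 10; and up to 6 per direction with no read in 1 line. Genes given in the text are a selection of these. The members and lists were chosen with earlier results of these data known.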

Additional observations from a re-analysis of the deposited data

Results flagged for a closer look

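For 8 of the genes with the largest differences between KO1 and control, the same contrast in KO2 gave a different size, by a direct limma test of KO1 minus KO2 with Benjamini-Hochberg adjustment. KO1 was lower than KO2 for PCIF1 (-1.33 on the log2 scale, adjusted p = 2.86e-06), CAVIN2 (-2.483, 1.59e-05), EMC10 (-6.304, 5.81e-07), CA9 (-4.73, 1.95e-06), GSPT2 (-7.197, 1.01e-05) and TMEM233 (-3.28, 0.00238). It was higher for PXDN (1.58, 0.00695) and EPHA3 (7.549, 3.22e-05). Over all 14508 genes the same test called 28.5%. With 3 libraries a line, no test of single libraries standing apart was made.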

How the results depend on the processing

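Counts of calls depended on the libraries and the scaling. With 1 library of control or KO1 left out, 3755 to 4295 genes were called (2197 to 2568 higher, 1525 to 1795 lower, 56.69% to 59.79% of calls higher), and the log2 difference of PCIF1 was -1.303 to -1.202. The fit with the replicate letter as a block (replicate block) called 4381 genes (2568 higher, 1813 lower, 58.62% higher); the residuals of same-letter libraries correlated at -0.072 to 0.039, so the letters did not pair them. The share of calls that were higher was 49.53% with libraries centred on their median, 51.78% with quantile normalization, 46.82% with limma-voom on recovered reads, and 49.89% with the GC and length trend subtracted, the last added after seeing the data. Of 386 genes named by rule other than PCIF1, 39 to 47 were no longer called with 1 library left out, 24 without a variance trend, 19 under the block, 8 to 14 under the 4 other scalings, 5 with only the 6 libraries compared and 1 without a filter, and none reversed in any setting. The cause of these shifts was not tested. Near 1 TPM a value can rest on few reads. In the lowest of 4 equal bins of level, from 1.0012 to 6.8277 TPM, 26.3% of genes were called, against 43.0% in the highest. The part of read depth in this difference was not tested.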

Other observations

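Long intergenic noncoding RNAs, taken as symbols that begin with LINC, had 41 of 173 higher in KO1 and 22 lower by limma, with a median log2 difference of 0.14, against 20.1% and 14.2% of all genes. LINC02241 had 62 reads in control and 1 in KO1, and LINC01444 fell from 25.8 ± 3.87 to 3.42 ± 1.15 TPM (SD, n = 3; the latter lies in the lower stretch of chromosome 18). SNHG14, the host transcript of a small nucleolar RNA cluster on chromosome 15, rose from 12.6 ± 0.272 to 24.4 ± 0.264 TPM. It lies in a stretch of that chromosome where 17 of 40 genes were higher and 0 lower. Cancer testis antigens, genes normally active in germ cells, had 5 of 15 higher and none lower (median 0.15). Interferon-stimulated genes had 11 of 37 higher and 4 lower (median 0.12).

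KCNJ2, an inward-rectifier potassium channel, rose from 4.14 ± 0.547 to 9.72 ± 0.260 TPM and averaged 2.50 TPM in KO2 (KO1 minus KO2 1.97 on the log2 scale, limma adjusted p = 2.06e-05). Ornithine decarboxylase, ODC1, the first enzyme of polyamine synthesis, fell from 67.2 ± 1.0 to 41.8 ± 1.09 TPM and averaged 80.8 TPM in KO2 (-0.95, adjusted p = 6.06e-07). The plasminogen activator gene PLAT rose from 91.3 ± 6.05 to 134 ± 3.62 TPM and averaged 34.6 TPM in KO2 (1.96, adjusted p = 2.05e-07).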
